A study of Mus musculus with 19 samples.

Results

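The integrated stress response genes described here are 10 regulators and effectors: Atf4, Ddit3, Atf5, Cebpb, Cebpg, Trib3, Chac1, Sesn2, Ppp1r15a and Ddit4. They were taken by name from the gene count tables, where all 10 were present among 24421 symbols. RNA was sequenced in bulk from conventional dendritic cells of type 1 (cDC1) and type 2 (cDC2), sorted by flow cytometry from the spleens of C57BL6 mice at 5000 to 50000 cells per library. The genotypes were Xbp1-Ire1 KO (both genes deficient), Xbp1 KO and WT, and the 19 libraries comprised 3 per group, except for cDC2 WT with 4. The labels name no Cre line, promoter, deleted exons, age or sex. Both KO genotypes lack Xbp1, so that Ire1 was never removed alone. The WT libraries carried 2 kinds of sample name: WT replicates 1 and 2 of each cell type bore the name XBP1fl-fl-IRE1fl-fl, which denotes floxed alleles of both genes, whereas replicate 3 (and, for cDC2, also replicate 4) bore the name XBP1-IRE1-WT. These are called the fl-fl and the WT-named libraries below. The labels do not state that libraries of a group came from separate mice, so the tests measure the spread between these libraries, which may be technical.

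The integrated stress response begins when one of several kinases, among them the endoplasmic reticulum (ER) sensor PERK, phosphorylates the translation factor eIF2alpha. General translation then slows while the mRNA of the transcription factor ATF4 is translated more. ATF4 acts with C/EBP family partners on genes of amino acid synthesis and uptake and on further regulators, among them CHOP (the product of Ddit3), the pseudokinase TRIB3 and the phosphatase subunit GADD34 (the product of Ppp1r15a), which closes the loop by directing dephosphorylation of eIF2alpha. IRE1 is a separate ER sensor, an endonuclease that splices Xbp1 mRNA and also cuts other ER-associated mRNAs. It is known to be active in cDC1 without added stress. Since ATF4 is controlled mainly at translation, its mRNA level is not a measure of its protein.

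Promoter windows show the sequence contexts of the genes whose levels the results turn on. Windows of 250 bases before to 50 bases after the annotated start were taken from RefSeq (mouse assembly GRCm38.p6), and all 10 genes matched, with 11 windows because Atf5 had more than one start. Both strands were searched for the core of the C/EBP-ATF response element (TGATGNAA), the site class bound by ATF4 with C/EBP partners, for the cAMP response element (TGACGTCA), the unfolded protein response element core (TGACGTGG), and the ER stress response element, taken as CCAAT and CCACG with any 9 bases between them. TGATGNAA occurred in the windows of Trib3 and Chac1, and TGACGTCA in that of Ppp1r15a. The 3 windows are shown because these genes gave 3 different patterns across genotypes, with the match in capitals and the sequence written 5′ to 3′ along the gene.
Trib3: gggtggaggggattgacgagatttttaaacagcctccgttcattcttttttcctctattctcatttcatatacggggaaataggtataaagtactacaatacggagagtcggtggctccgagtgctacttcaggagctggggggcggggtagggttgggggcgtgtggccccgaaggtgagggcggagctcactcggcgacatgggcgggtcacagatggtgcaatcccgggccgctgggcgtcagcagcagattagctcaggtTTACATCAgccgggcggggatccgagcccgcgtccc
Chac1: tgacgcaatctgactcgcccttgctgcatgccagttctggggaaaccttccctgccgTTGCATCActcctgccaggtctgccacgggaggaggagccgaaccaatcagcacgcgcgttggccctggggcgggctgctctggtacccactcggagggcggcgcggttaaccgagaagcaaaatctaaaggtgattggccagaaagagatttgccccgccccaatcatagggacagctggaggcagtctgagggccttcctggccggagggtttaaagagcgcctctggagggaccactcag
Ppp1r15a: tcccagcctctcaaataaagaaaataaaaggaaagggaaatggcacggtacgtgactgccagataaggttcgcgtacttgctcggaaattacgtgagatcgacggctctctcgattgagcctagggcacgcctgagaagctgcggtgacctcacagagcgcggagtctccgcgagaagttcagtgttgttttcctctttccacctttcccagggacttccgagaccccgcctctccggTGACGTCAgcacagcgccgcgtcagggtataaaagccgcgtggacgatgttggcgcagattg
The Trib3 window is chr2:152344011-152344310 (minus strand), with its match on the opposite strand at bases 15 to 22 after the start. The Chac1 window is chr2:119350992-119351291 (plus strand), with its match on the opposite strand at bases -193 to -186. The Ppp1r15a window is chr7:45526219-45526518 (minus strand), with its palindromic match at bases -12 to -5. Of 32851 mouse promoter windows of this length, 3.97% held TGATGNAA, 1.79% held TGACGTCA, 0.676% held TGACGTGG and 0.119% held the ER stress response element. The windows of the other 7 genes held none of these letters, which says nothing about sites elsewhere.

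The libraries held 10606864 to 16209469 counts. Levels are given in CPM, counts scaled to a common library total, with edgeR's TMM factors. The cDC1 marker Xcr1 lay at 813 to 1280 unscaled CPM in the cDC1 libraries against 5.66 to 19.5 in the cDC2 libraries, and the cDC2 marker Sirpa at 5.31 to 68 in cDC1 against 1300 to 1700 in cDC2. By the test given below, 1 of 9 cDC1 markers was higher and 5 lower in cDC1 Xbp1-Ire1 KO than in Xbp1 KO (7.39% and 5.62% of all genes). Their summed levels were 9540 to 10800 and 9180 to 9900 unscaled CPM. Against WT, 0 were higher and 2 lower in Xbp1-Ire1 KO (3.19% and 5.04% of all genes), and 1 higher and 2 lower in Xbp1 KO (4.25% and 7.13%). Whole-gene counts do not check the deletions, since the deleted exons are not given: in cDC1, Xbp1 itself stood at 312 to 359 CPM in Xbp1-Ire1 KO, 92.9 to 117 in Xbp1 KO and 147 to 240 in WT, and Ern1, which encodes IRE1, at 52.3 to 72.6, 27.8 to 34.3 and 23.1 to 29.9 CPM in the same order. One library stood apart, cDC1 Xbp1 KO replicate 3, whose summed level of 15 pancreatic acinar genes was 2080 unscaled CPM, against at most 8.8 in the other 18 libraries. In cDC1 the summed level of 6 neutrophil genes was 17.9 to 57.5 unscaled CPM in Xbp1-Ire1 KO, 0 to 12.6 in Xbp1 KO and 1.37 to 8.74 in WT. That of 6 erythroid genes was 6.03 to 19.2, 2.03 to 3.59 and 0.947 to 5.57 in the same groups, that of 6 monocyte genes 53 to 196, 116 to 214 and 54 to 85.4, and that of 7 genes shared by dendritic cells 51300 to 53900, 55500 to 60400 and 59700 to 86300. The summed level of 7 red pulp macrophage genes was 177 to 664 in cDC1 Xbp1-Ire1 KO, 166 to 834 in Xbp1 KO and 224 to 345 in WT. In cDC2 it was 604 to 1110, 451 to 1780 and 459 to 812 in the same order of genotypes. The part of these differences in the results below was not tested.

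In cDC1, 8 of the 10 genes were higher in Xbp1-Ire1 KO than in WT and none was lower, while 3.19% of all 11353 genes tested were called higher and 5.04% lower. A gene was called where its p from the quasi-likelihood test of edgeR, adjusted by Benjamini-Hochberg over all tested genes, was below 0.05. Xbp1 KO against WT gave 6 higher and 0 lower, against 4.25% of all genes called higher and 7.13% lower. Xbp1-Ire1 KO against Xbp1 KO gave 4 higher and 0 lower, against 7.39% higher and 5.62% lower over all genes. The median log2 fold change of the 10 genes was 2.43 for Xbp1-Ire1 KO against WT, 1.29 for Xbp1 KO against WT and 1.34 for Xbp1-Ire1 KO against Xbp1 KO, beside medians of 0.01, -0.02 and 0.02 over all genes. The 3 comparisons share libraries pairwise, so their values are not independent of each other. In bulk RNA, a change in the number of expressing cells and a change in RNA per cell cannot be told apart.

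Atf4 (chr15:80255184-80257541), the central transcription factor of the response, was highest in cDC1 lacking both genes. Its level was 203, 205 and 201 CPM in cDC1 Xbp1-Ire1 KO, 122, 99.9 and 139 in Xbp1 KO and 28.9, 34.2 and 72.9 in WT. The 3 groups did not overlap, and the WT-named WT library was the highest of the WT libraries. The log2 fold change was 2.17 ± 0.30 (SE, edgeR adjusted p = 0.00183) for Xbp1-Ire1 KO against WT and 1.40 ± 0.30 (adjusted p = 0.0153) for Xbp1 KO against WT. The difference between the KO groups was 0.77 ± 0.29 and was not called (edgeR adjusted p = 0.111, 95% interval 0.21 to 1.34), although DESeq2 called it (adjusted p = 0.0219). The call in Xbp1 KO against WT was lost without WT replicate 2 (log2 fold change 1.24, edgeR adjusted p = 0.0524) or without Xbp1 KO replicate 1 (1.40, adjusted p = 0.0504).

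Ddit3 (chr10:127290774-127296288) encodes CHOP, a transcription factor linked to cell death under prolonged ER stress, and it separated all 3 cDC1 genotypes. Its level was 72.6, 52.3 and 49.4 CPM in cDC1 Xbp1-Ire1 KO, 11.4, 12.9 and 22.03 in Xbp1 KO and 3.41, 2.19 and 5.43 in WT. Every library of one group lay apart from every library of the next. Ddit3 rose 15.8-fold in Xbp1-Ire1 KO over WT (log2 3.99 ± 0.34, edgeR adjusted p = 8.61e-06) and 4.16-fold in Xbp1 KO over WT (2.06 ± 0.33, adjusted p = 0.00137), and it was 3.80-fold higher in Xbp1-Ire1 KO than in Xbp1 KO (1.93 ± 0.30, adjusted p = 0.00102). Set against the single WT-named cDC1 library, which was assumed to vary like the other groups, the Xbp1 KO value was 1.51 and was not called (edgeR adjusted p = 0.0675). The annotation holds 2 gene models under the symbol Ddit3, and its exons share 68 bases of 1713 with those of Mars on the opposite strand. Strand use in the counting was not given in the sources used here, so reads from those bases cannot be assigned to either gene.

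Atf5 (chr7:44812256-44816658), a relative of Atf4 that is itself controlled at translation and acts on mitochondrial stress genes, was scarce but followed the same order. It had 8.19, 7.88 and 5.84 CPM in cDC1 Xbp1-Ire1 KO, 2.89, 3.36 and 1.89 in Xbp1 KO and 0.939, 0.469 and 0 in WT, where the group held 17 counts in all. The groups did not overlap. Its exons share 82 bases of 1993 with Il4i1 and with Nup62 on the opposite strand. The log2 fold changes were 3.95 ± 0.68 for Xbp1-Ire1 KO against WT (edgeR adjusted p = 0.00211) and 2.51 ± 0.68 for Xbp1 KO against WT (adjusted p = 0.0286). With so few WT counts these values moved with single libraries: without WT replicate 1 they were 4.89 and 3.46, and the Xbp1 KO call was lost without WT replicate 2 or Xbp1 KO replicate 1 or 2 (edgeR adjusted p = 0.0808, 0.0822 and 0.0978). Between the KO groups the value was 1.44 ± 0.58 and was not called (edgeR adjusted p = 0.114), whereas DESeq2 called it (adjusted p = 0.0378).

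Cebpb and Cebpg encode C/EBP proteins that can pair with ATF4. Cebpb (chr2:167688915-167690418) had a level of 127, 122 and 120.1 CPM in cDC1 Xbp1-Ire1 KO, 38.8, 48.0 and 37.5 in Xbp1 KO and 16.7, 16.9 and 20.7 in WT. The 3 groups were far apart relative to their spread, and no library crossed into another group. Cebpb was 6.82-fold higher in Xbp1-Ire1 KO than in WT (log2 2.77 ± 0.15, edgeR adjusted p = 1.1e-07), 2.27-fold higher in Xbp1 KO than in WT (1.19 ± 0.15, adjusted p = 0.000118) and 3.00-fold higher in Xbp1-Ire1 KO than in Xbp1 KO (1.58 ± 0.15, adjusted p = 4.64e-06). These calls were kept in every alternative run. Its exons share 312 bases of 1504 with Tmem189 on the opposite strand.

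Cebpg (chr7:35046422-35056573) moved less. It had 85.6, 66.5 and 81.1 CPM in cDC1 Xbp1-Ire1 KO, 58.1, 64.0 and 67.3 in Xbp1 KO and 48.7, 47.9 and 41.2 in WT. Both KO groups lay above WT, and the KO groups overlapped each other. Its log2 fold change was 0.76 ± 0.14 in Xbp1-Ire1 KO against WT (edgeR adjusted p = 0.00399). For Xbp1 KO against WT it was 0.45 ± 0.14, just above the threshold (edgeR adjusted p = 0.057), and with DESeq2 size factors just below it (0.47, adjusted p = 0.046).

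**Figure D1:**
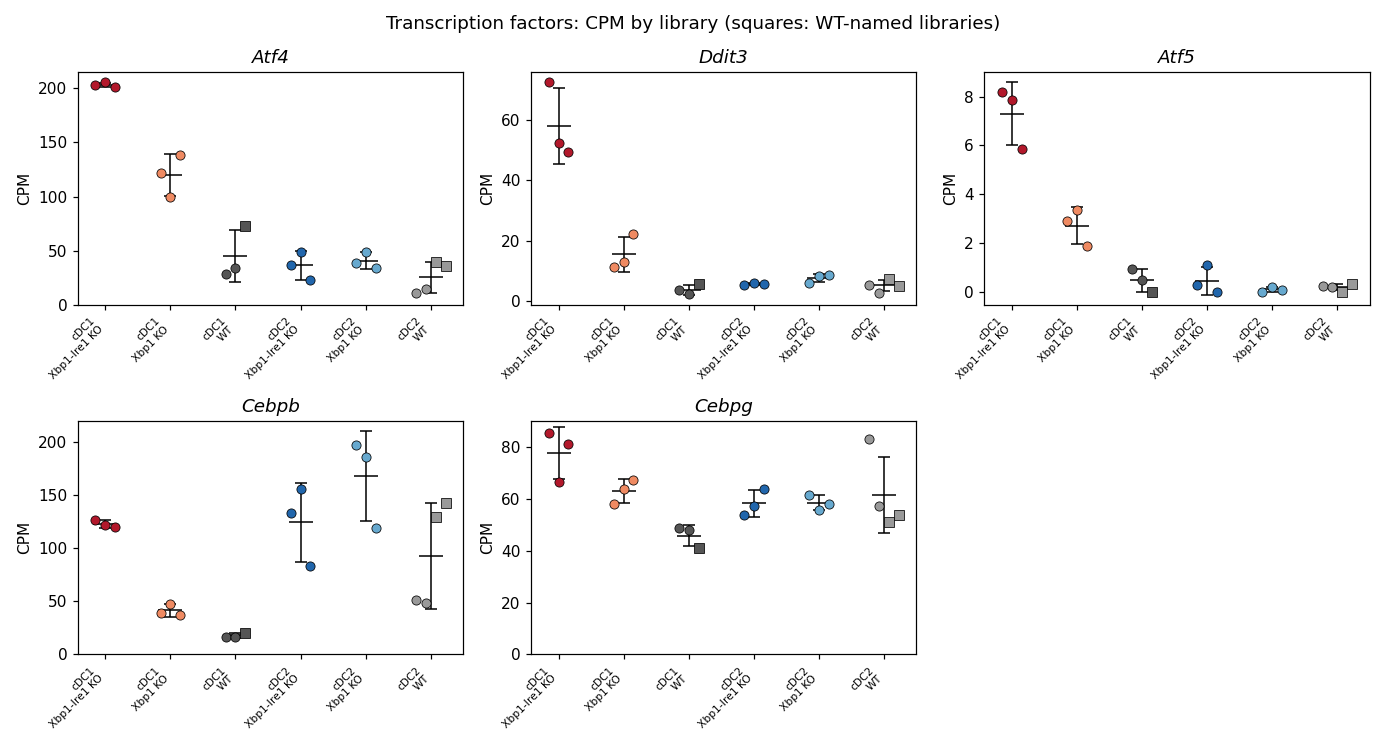
Levels of Atf4, Ddit3, Atf5, Cebpb and Cebpg in CPM (y axis) in each library of the 6 groups (x axis). Points are libraries, squares mark the WT-named WT libraries, and bars give the mean ± SD of 3 libraries (4 for cDC2 WT). For Atf4, Ddit3, Atf5 and Cebpb the 3 cDC1 groups do not overlap, while in cDC2 the genotypes overlap.

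Trib3 (chr2:152337422-152344032), a pseudokinase induced by ATF4 and CHOP that in turn restrains ATF4, had the largest fold change of the 10 genes in cDC1 Xbp1-Ire1 KO against WT. Its level was 131, 105 and 88.7 CPM in cDC1 Xbp1-Ire1 KO, 9.50, 5.90 and 17.1 in Xbp1 KO and 2.65, 3.99 and 3.08 in WT. Every Xbp1-Ire1 KO library lay far above the highest Xbp1 KO library. The increase was 33.4-fold in Xbp1-Ire1 KO over WT (log2 5.06 ± 0.36, edgeR adjusted p = 4.37e-06), 3.31-fold in Xbp1 KO over WT (1.73 ± 0.35, adjusted p = 0.00824) and 10.1-fold in Xbp1-Ire1 KO over Xbp1 KO (3.33 ± 0.32, adjusted p = 2.59e-05). The call in Xbp1 KO against WT was lost without WT replicate 1 (log2 fold change 1.61, edgeR adjusted p = 0.0588) and against the single WT-named library (1.82, adjusted p = 0.275).

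Chac1 (chr2:119351229-119354381), an enzyme that degrades glutathione and a target of ATF4, gave a pattern different from that of Trib3. Both windows hold TGATGNAA, and the use of these matches was not tested. Its libraries had 68.5, 67.1 and 64.9 CPM in cDC1 Xbp1-Ire1 KO, 48.8, 54.3 and 69.9 in Xbp1 KO and 9.30, 5.63 and 16.3 in WT. Both KO groups lay above all WT libraries, and the highest Xbp1 KO library exceeded every Xbp1-Ire1 KO library. Chac1 rose 6.45-fold in Xbp1-Ire1 KO over WT (log2 2.69 ± 0.30, edgeR adjusted p = 0.000136) and 5.50-fold in Xbp1 KO over WT (2.46 ± 0.29, adjusted p = 0.000167). Xbp1-Ire1 KO against Xbp1 KO gave 0.23 ± 0.27 (edgeR adjusted p = 0.638), with a 95% interval of -0.30 to 0.76 that lies below the 3.33 ± 0.32 of Trib3 in the same libraries.

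Sesn2 and Ddit4 encode stress-induced repressors of the growth kinase mTORC1, and they behaved unlike each other. Sesn2 (chr4:132492032-132510501), a leucine sensor, had 213, 213 and 172 CPM in cDC1 Xbp1-Ire1 KO, 83.1, 77.4 and 95.6 in Xbp1 KO and 73.9, 60.5 and 59.6 in WT. All Xbp1-Ire1 KO libraries were above the rest, and Xbp1 KO lay narrowly above WT. Sesn2 was 3.10-fold higher in Xbp1-Ire1 KO than in WT (log2 1.63 ± 0.14, edgeR adjusted p = 5.62e-06) and 2.36-fold higher than in Xbp1 KO (1.24 ± 0.14, adjusted p = 3.58e-05). For Xbp1 KO against WT the value was 0.39 ± 0.14 and was not called (edgeR adjusted p = 0.0876), while DESeq2 called it (0.41, adjusted p = 0.0461).

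Ddit4 (chr10:59949669-59951834), which encodes the mTORC1 inhibitor REDD1, was close to the detection limit in cDC1. It had 2.16, 2.59 and 2.01 CPM in cDC1 Xbp1-Ire1 KO, 0, 0.635 and 1.03 in Xbp1 KO and 1.37, 1.09 and 0.243 in WT, that is 97, 19 and 33 counts over the 3 libraries of each group. Xbp1-Ire1 KO lay above both other groups, which overlapped. None of its cDC1 comparisons was called: 1.32 ± 0.88 for Xbp1-Ire1 KO against WT (edgeR adjusted p = 0.404), -0.70 ± 0.94 for Xbp1 KO against WT (0.672) and 2.02 ± 0.92 for Xbp1-Ire1 KO against Xbp1 KO (0.162).

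Ppp1r15a (chr7:45522916-45526268), whose product GADD34 is the feedback phosphatase subunit, did not follow the others. Its level was 131, 194 and 159 CPM in cDC1 Xbp1-Ire1 KO, 342, 324 and 238 in Xbp1 KO and 87.8, 67.9 and 303 in WT. The highest WT value belonged to the WT-named library, and Xbp1-Ire1 KO lay wholly below Xbp1 KO. None of the 3 comparisons was called: 0.08 ± 0.57 for Xbp1-Ire1 KO against WT (edgeR adjusted p = 0.958), 0.97 ± 0.57 for Xbp1 KO against WT (0.325) and -0.89 ± 0.57 for Xbp1-Ire1 KO against Xbp1 KO (0.369). The choice of WT libraries decided the first value, which was 1.05 and called higher against the fl-fl libraries (edgeR adjusted p = 0.00274) and -0.90 and called lower against the WT-named one (adjusted p = 0.0359). Xbp1 KO was likewise called higher against the fl-fl libraries (1.95, edgeR adjusted p = 1.97e-05) and had a value of 0.00 against the WT-named one (adjusted p = 0.997).

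Immediate early genes respond quickly to stimulation and to tissue dissociation, and their level differed between the same libraries as that of Ppp1r15a. The mean log2 CPM of 28 such genes was 7.62 to 8.01 in cDC1 Xbp1-Ire1 KO, 8.60 to 8.83 in Xbp1 KO, 7.43 and 7.51 in the fl-fl WT libraries and 8.27 in the WT-named one. In cDC2 it was 8.53 to 9.13 in Xbp1-Ire1 KO, 8.78 to 9.36 in Xbp1 KO, 7.64 and 7.73 in the fl-fl WT libraries and 8.79 and 8.85 in the WT-named ones. Of the 28 genes, 14 were lower and 0 higher in cDC1 Xbp1-Ire1 KO than in Xbp1 KO (5.62% of all genes lower and 7.39% higher), with Jun at -1.08 ± 0.19 (log2, edgeR adjusted p = 0.00236) and Egr2 at -1.43 ± 0.21 (adjusted p = 0.000766). Against WT, 1 was higher and 5 lower in cDC1 Xbp1-Ire1 KO (3.19% and 5.04% of all genes), and 5 were higher and 0 lower in Xbp1 KO (4.25% and 7.13%). The part of this difference between libraries in the Ppp1r15a values was not tested.

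**Figure D2:**
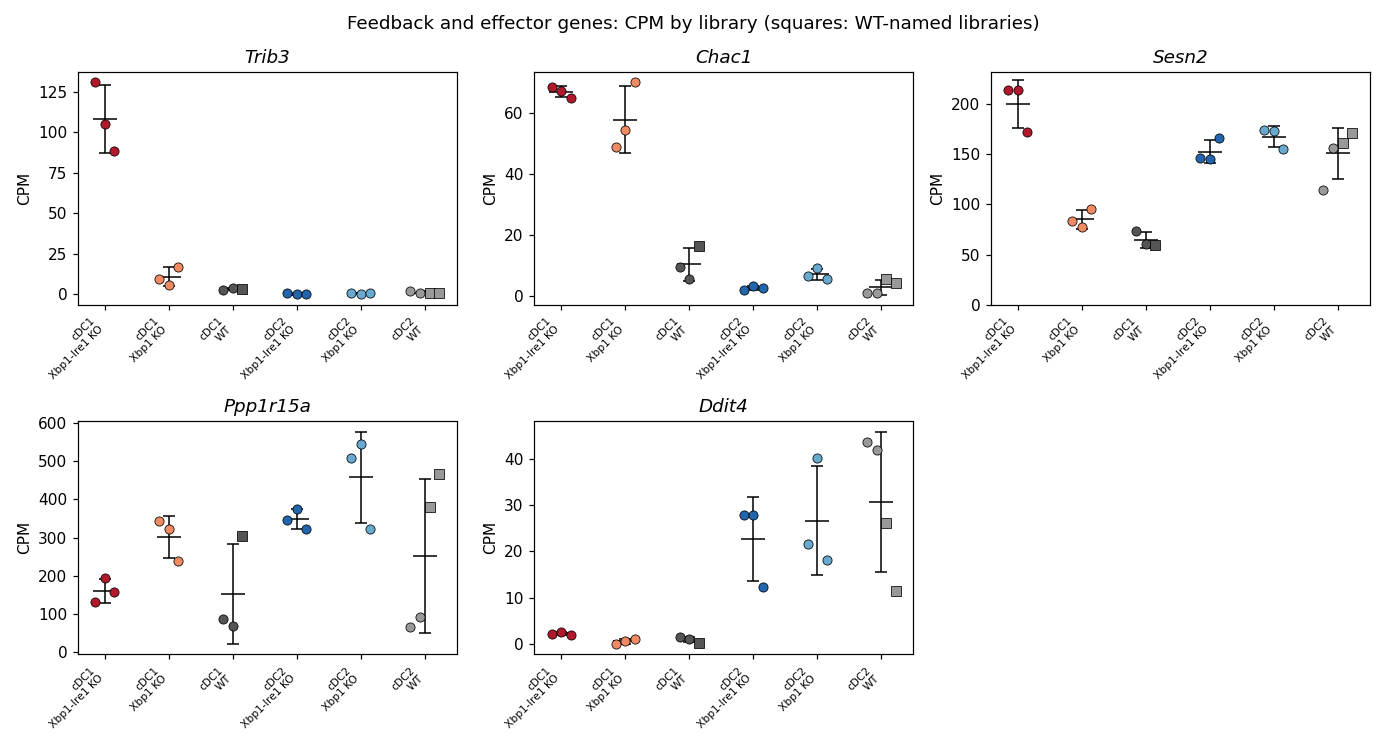
Levels of Trib3, Chac1, Sesn2, Ppp1r15a and Ddit4 in CPM (y axis) in each library of the 6 groups (x axis), drawn as for the transcription factors. Trib3 and Sesn2 set cDC1 Xbp1-Ire1 KO apart, Chac1 is high in both cDC1 KO groups, and for Ppp1r15a the WT-named squares lie well above the fl-fl WT circles.

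The cDC1 Xbp1 KO library with the pancreatic transcripts had the highest Xbp1 KO level of Atf4, Ddit3, Cebpg, Trib3, Chac1, Sesn2 and Ddit4. Without it, all 6 calls of Xbp1 KO against WT were kept. The log2 fold changes were then 1.29 for Atf4 (edgeR adjusted p = 0.0487), 1.72 for Ddit3 (0.0054), 2.72 for Atf5 (0.0363), 1.26 for Cebpb (0.000371), 1.25 for Trib3 (0.0141) and 2.31 for Chac1 (0.000892). Of the 10 genes, the 8 called higher in Xbp1-Ire1 KO against WT were called in every alternative run, as were Ddit3, Cebpb, Trib3 and Sesn2 in Xbp1-Ire1 KO against Xbp1 KO.

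In cDC2 none of the 8 genes that passed the filter on low counts was called in any comparison of genotypes, by edgeR or by DESeq2. At an unadjusted p under 0.05, edgeR gave 0 genes for Xbp1-Ire1 KO against WT and 1 each for Xbp1 KO against WT and for Xbp1-Ire1 KO against Xbp1 KO, which was Chac1 both times. Few genes of any kind were called there: of 11646 tested, 0.0172% were higher and 0% lower in Xbp1-Ire1 KO against WT, 0.0515% higher and 0.0343% lower in Xbp1 KO against WT, and 0.0258% higher and 0.00859% lower in Xbp1-Ire1 KO against Xbp1 KO. The median log2 fold change of the 8 genes was 0.06, 0.61 and -0.31 in these comparisons, beside 0, -0.02 and 0 over all genes.

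Ddit3 had 5.21, 5.91 and 5.65 CPM in cDC2 Xbp1-Ire1 KO, 5.86, 8.16 and 8.61 in Xbp1 KO and 5.37, 2.68, 7.26 and 5.03 in WT. The cDC2 groups overlapped, and every cDC2 library was below every cDC1 Xbp1 KO library. For Xbp1-Ire1 KO against WT in cDC2 the log2 value of Ddit3 was 0.12 with a 95% interval of -0.52 to 0.76, an interval that lies below the 3.99 ± 0.34 of cDC1.

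Trib3 and Atf5 did not pass the filter in cDC2. Trib3 had 0.801, 0 and 0 CPM in cDC2 Xbp1-Ire1 KO, 0.483, 0.419 and 0.752 in Xbp1 KO and 2.04, 0.635, 0.577 and 0.812 in WT, which were 12, 22 and 51 counts in all. Atf5 was at or below 1.09 CPM in every cDC2 library, with 16, 4 and 10 counts over the same groups. Neither gene was therefore tested between genotypes in the main cDC2 fit, and without the filter neither was called in any cDC2 comparison.

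Chac1 in cDC2 had 2.07, 3.18 and 2.64 CPM in Xbp1-Ire1 KO, 6.41, 9.21 and 5.68 in Xbp1 KO and 0.814, 0.847, 5.61 and 4.14 in WT. Xbp1 KO lay above both other groups, narrowly above the highest WT library and clearly above Xbp1-Ire1 KO. The log2 value was 1.31 ± 0.54 for Xbp1 KO against WT (edgeR adjusted p = 0.507) and -1.44 ± 0.60 for Xbp1-Ire1 KO against Xbp1 KO (adjusted p = 0.573). Atf4 had 37.4, 49.4 and 23.04 CPM in cDC2 Xbp1-Ire1 KO, 39.0, 49.3 and 34.1 in Xbp1 KO and 11.2, 15.03, 40.00 and 35.9 in WT, and its genotypes overlapped.

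Cebpb in cDC2 had 133, 156 and 83.7 CPM in Xbp1-Ire1 KO, 198, 186 and 119 in Xbp1 KO and 51.0, 48.3, 129 and 143 in WT. Ppp1r15a in cDC2 had 347, 376 and 323 CPM in Xbp1-Ire1 KO, 507, 544 and 322 in Xbp1 KO and 67.3, 93.3, 379 and 468 in WT. In Atf4, Cebpb, Chac1 and Ppp1r15a the low WT libraries were the fl-fl ones, with the WT-named libraries inside or near the range of the KO libraries. Set against the fl-fl libraries alone, 4 of the 8 genes were called higher in cDC2 Xbp1 KO, with log2 fold changes of 1.60 for Atf4 (edgeR adjusted p = 0.00491), 1.73 for Cebpb (0.00403), 2.48 for Ppp1r15a (3.1e-05) and 3.05 for Chac1 (0.00183). In cDC2 Xbp1-Ire1 KO against the same libraries 3 of the 8 were called higher, with 1.45 for Atf4 (edgeR adjusted p = 0.013), 1.30 for Cebpb (0.0252) and 2.09 for Ppp1r15a (0.000164). Over all genes, this fit called 433 higher and 354 lower in Xbp1 KO, and 288 and 223 in Xbp1-Ire1 KO. With all WT libraries, 10 and 2 genes were called in these comparisons. Against the WT-named libraries alone 0 of the 8 genes were called in either comparison.

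Cebpg, Sesn2 and Ddit4 were well measured in cDC2 and gave no call in the main comparisons or against either kind of WT library. Sesn2 had 146, 145 and 166 CPM in cDC2 Xbp1-Ire1 KO, 174, 173 and 155 in Xbp1 KO and 114, 156, 161 and 171 in WT, and its log2 value for Xbp1-Ire1 KO against WT was 0.00 with a 95% interval of -0.26 to 0.26. Cebpg ranged from 51.3 to 83.3 CPM over all cDC2 libraries. Ddit4 ranged from 11.4 to 43.5 CPM in cDC2, with the groups overlapping.

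**Figure D3:**
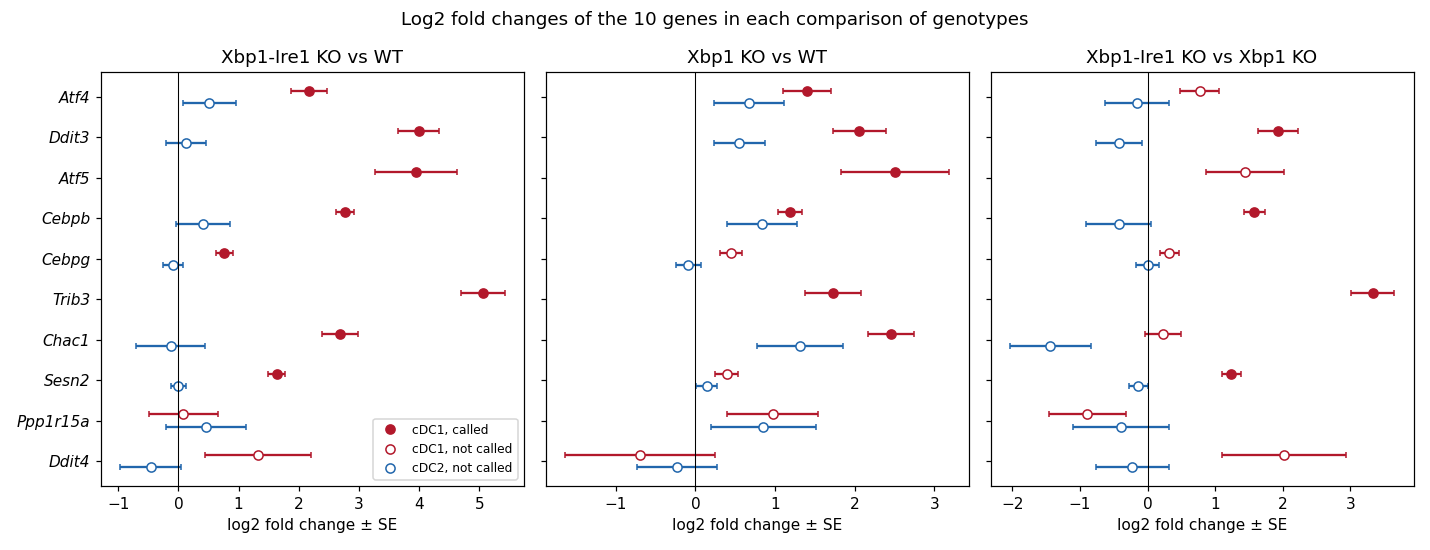
Log2 fold change ± SE (x axis) of the 10 genes (rows) for each comparison of genotypes (panels), from the fit within cDC1 (red) and within cDC2 (blue). Filled points were called at an adjusted p below 0.05, and Atf5 and Trib3 have no cDC2 point because they did not pass the filter. All filled points are red and lie right of 0, with Trib3 farthest right at 5.06 for Xbp1-Ire1 KO against WT.

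The difference between cDC1 and cDC2 in the genotype effect was tested directly, as an interaction over all 19 libraries. For Xbp1-Ire1 KO against WT, 5 of the 10 genes had a larger increase in cDC1 and 0 a smaller one, while 0.812% of 12185 genes were called higher and 1.64% lower. The log2 difference was 3.84 for Ddit3 (edgeR adjusted p = 4.56e-05), 1.61 for Sesn2 (4.95e-05), 6.70 for Trib3 (0.000241), 2.34 for Cebpb (0.024) and 0.83 for Cebpg (0.0442). The Trib3 value rests on the few cDC2 counts given above: without cDC2 Xbp1-Ire1 KO replicate 1, the only library of its group with any Trib3 counts, it was 11.76, a value set by counts of 0 that is no measure of size, and without any other library it was 6.16 to 6.92. Ddit3, Sesn2 and Trib3 were called in every alternative. Without cDC1 WT replicate 1, cDC1 WT replicate 2 or cDC1 Xbp1-Ire1 KO replicate 1 the calls fell to 3, with Cebpb (edgeR adjusted p = 0.0749, 0.0574 and 0.0617) and Cebpg (0.0683, 0.0573 and 0.135) lost. Cebpb was also lost without cDC1 Xbp1-Ire1 KO replicate 2 or cDC2 Xbp1-Ire1 KO replicate 3. Cebpg was also lost without cDC1 WT replicate 3, cDC1 Xbp1-Ire1 KO replicate 3, cDC2 WT replicate 1 or cDC2 Xbp1-Ire1 KO replicate 1 or 2. Chac1, at 2.80, was just above the threshold (edgeR adjusted p = 0.0583), and it was called by DESeq2 (0.0167) and without cDC1 WT replicate 3, cDC2 WT replicate 1 or cDC2 WT replicate 2.

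For Xbp1-Ire1 KO against Xbp1 KO, 3 genes had a larger difference in cDC1 and 0 a smaller one, beside 1.91% of all genes higher and 0.378% lower. These were Ddit3 at 2.34 (edgeR adjusted p = 0.00394), Sesn2 at 1.36 (0.000193) and Trib3 at 4.08 (0.0407). The Trib3 call was lost in 9 of the 12 fits that left out 1 KO library (edgeR adjusted p = 0.0574 to 0.159), all but those without cDC1 Xbp1-Ire1 KO replicate 3, cDC1 Xbp1 KO replicate 3 or cDC2 Xbp1-Ire1 KO replicate 1, and without the filter on low counts (0.0756). Its value was 9.14 without cDC2 Xbp1-Ire1 KO replicate 1 and 3.58 to 4.57 without any other library. For Xbp1 KO against WT none of the 10 genes was called by edgeR, against 0.320% of all genes higher and 1.85% lower, and 4 had an unadjusted p under 0.05. Ddit3 was the nearest at 1.5 (edgeR adjusted p = 0.107), and DESeq2 called this gene and none of the other 9 (adjusted p = 0.0466). It was also called without cDC1 WT replicate 3 (1.89, edgeR adjusted p = 0.0229) or cDC2 WT replicate 2 (1.71, 0.0323).

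Among WT cells, cDC1 and cDC2 differed in these genes in both directions. In WT cDC1 against WT cDC2, 2 genes were called higher and 4 lower, beside 20.0% of all genes higher and 20.6% lower, so these counts are little apart from the background. Chac1 had 9.30, 5.63 and 16.3 CPM in WT cDC1 and 0.814, 0.847, 5.61 and 4.14 in WT cDC2 (log2 1.88 ± 0.49, edgeR adjusted p = 0.00555), with no overlap by the margin between 5.63 and 5.61. Trib3 was higher in WT cDC1 by 1.68 ± 0.53 (edgeR adjusted p = 0.0175), a call lost without cDC1 WT replicate 2 or cDC2 WT replicate 2 or 3 (0.0726, 0.0515 and 0.0521). It was also lost within either kind of WT library, at an adjusted p of 0.195 between fl-fl libraries and 0.116 between WT-named ones.

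Lower in WT cDC1 were Ddit4 at -5.08 ± 0.67 (edgeR adjusted p = 9.7e-06), Cebpb at -2.36 ± 0.38 (0.000101), Sesn2 at -1.22 ± 0.14 (2.47e-07) and Cebpg at -0.42 ± 0.15 (0.0291). The Ddit4 means were 0.901 ± 0.586 CPM in WT cDC1 and 30.7 ± 15.1 CPM in WT cDC2 (SD, n = 3 and 4). The Cebpg call was lost without cDC1 WT replicate 3 or cDC2 WT replicate 1 (edgeR adjusted p = 0.104 and 0.144) and between WT-named libraries (0.181). Atf4 was not called (0.83 ± 0.41, edgeR adjusted p = 0.128), and it was called without cDC2 WT replicate 3 (1.13, 0.0482) and within either kind of WT library, at 1.24 between fl-fl libraries (0.00208) and 0.93 between WT-named ones (0.0365).

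Set beside the cDC2 libraries, Cebpb in cDC1 Xbp1-Ire1 KO lay within their range, and Sesn2 exceeded the highest of them (174 CPM) in 2 of 3 libraries. Cebpb averaged 123 ± 3.64 CPM in cDC1 Xbp1-Ire1 KO, and the cDC2 group means were 124 ± 37.2 in Xbp1-Ire1 KO, 168 ± 42.4 in Xbp1 KO and 92.9 ± 50.2 in WT. Sesn2 averaged 199.5 ± 23.7 CPM in cDC1 Xbp1-Ire1 KO, beside 152 ± 11.6, 167 ± 10.9 and 151 ± 25.1 in the same cDC2 groups. For Ddit3, Atf5, Trib3, Chac1 and Atf4, by contrast, every cDC1 Xbp1-Ire1 KO library was above every cDC2 library of any genotype. The share of all genes separated in this way was not counted. Trib3 and Chac1 were already called higher in WT cDC1 than in WT cDC2, as were 20.0% of all genes.

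Levels can be compared between genes only per length of transcript. Per kilobase of annotated exon, the order in cDC1 Xbp1-Ire1 KO was Atf4 (86.1 ± 0.941 CPM per kb), Cebpb (81.7 ± 2.42), Sesn2 (57.4 ± 6.83), Ppp1r15a (54.9 ± 10.9), Trib3 (50.9 ± 9.96), Chac1 (40.8 ± 1.11), Ddit3 (33.9 ± 7.37), Cebpg (13.8 ± 1.78), Atf5 (3.66 ± 0.641) and Ddit4 (1.28 ± 0.170). Between neighbours from Sesn2 to Ddit3 in this order, the difference was smaller than the sum of their SDs. In cDC1 WT, Ppp1r15a led at 52.1 ± 44.4 CPM per kb, followed by Atf4 (19.2 ± 10.2), Sesn2 (18.6 ± 2.31) and Cebpb (12.03 ± 1.48), while Trib3 (1.52 ± 0.322) and Atf5 (0.236 ± 0.236) were near the bottom.

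The known targets of ATF4 and CHOP, the 10 genes left out, were counted as a list. Of 48 such genes, 45 were tested in cDC1. In Xbp1-Ire1 KO against WT 37 were higher and 1 lower, in Xbp1 KO against WT 28 were higher and 1 lower, and in Xbp1-Ire1 KO against Xbp1 KO 29 were higher and 1 lower. Of all genes, 3.19% were higher and 5.04% lower, 4.25% and 7.13%, and 7.39% and 5.62% in the same order. The list medians were 1.48, 0.73 and 0.69 on the log2 scale, beside 0.01, -0.02 and 0.02 over all genes. Phgdh, the first enzyme of serine synthesis, was higher by 3.27 ± 0.19 in Xbp1-Ire1 KO against WT (edgeR adjusted p = 1.47e-07) and by 1.69 ± 0.18 in Xbp1 KO against WT (2.16e-05), and Asns, asparagine synthetase, by 3.02 ± 0.25 in Xbp1 KO against WT (5.26e-06). The gene called lower was the pro-apoptotic Bcl2l11 in Xbp1-Ire1 KO against WT (-1.24 ± 0.17, edgeR adjusted p = 0.000411) and the glutamine transporter Slc1a5 in Xbp1 KO against WT (-2.23 ± 0.17, 7.65e-07). Over the alternatives the number higher ranged from 34 to 39, from 24 to 30 and from 19 to 30, the lowest of the last without Xbp1 KO replicate 1.

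In cDC2 none of 41 targets was called in any comparison of genotypes by edgeR or DESeq2, with list medians of 0.07, 0.05 and 0.05. Against the fl-fl WT libraries alone, 5 targets were called higher in cDC2 Xbp1-Ire1 KO and 5 in cDC2 Xbp1 KO, and against the WT-named ones 0 in either. Over all genes, the fit with fl-fl WT libraries called 288 higher and 223 lower in cDC2 Xbp1-Ire1 KO. For cDC2 Xbp1 KO it called 433 higher and 354 lower. The interaction found a larger increase in cDC1 for 28 of 45 and a smaller one for 1 in Xbp1-Ire1 KO against WT. Over all genes these shares were 0.812% and 1.64%. In each library the mean log2 CPM of the 45 targets was 6.58 to 6.74 in cDC1 Xbp1-Ire1 KO, 5.67 to 5.88 in Xbp1 KO and 4.95 to 5.14 in WT. In cDC2 it was 4.57 to 4.68 in Xbp1-Ire1 KO, 4.52 to 4.62 in Xbp1 KO, 4.33 and 4.38 in the fl-fl WT libraries and 4.54 and 4.6 in the WT-named ones. Across the cDC1 groups Trib3 had the same order as this level, whereas Ppp1r15a, highest in Xbp1 KO, did not.

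**Figure D4:**
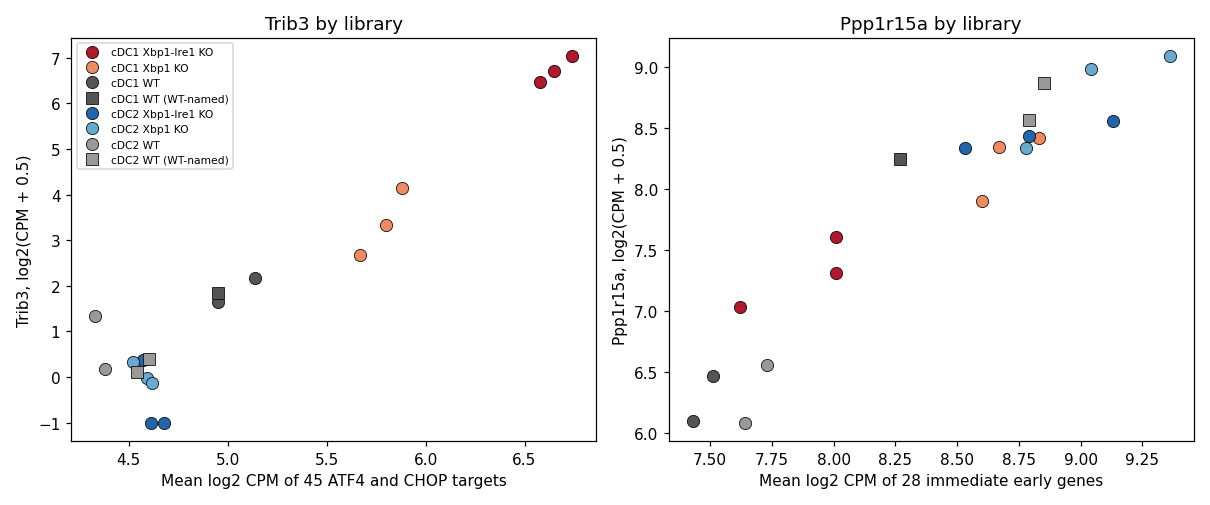
Left, Trib3 as log2(CPM + 0.5) (y axis) against the mean log2 CPM of 45 ATF4 and CHOP targets (x axis), 1 point per library. Right, Ppp1r15a on the same scale against the mean log2 CPM of 28 immediate early genes; squares are WT-named WT libraries. The 3 cDC1 Xbp1-Ire1 KO libraries stand alone at the upper right for Trib3 (target level 6.58 to 6.74) but not for Ppp1r15a.

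Upstream of ATF4, a list of 15 genes was tested in cDC1. It held the eIF2alpha kinases, the phosphatase partner Ppp1r15b, the eIF2 and eIF2B subunits, and also Nck1 and Dnajc3. In Xbp1-Ire1 KO against WT 2 were higher and 1 lower, in Xbp1 KO against WT 1 was higher and 2 lower, and in Xbp1-Ire1 KO against Xbp1 KO 5 were higher and 0 lower. Over all genes 3.19% were higher and 5.04% lower, 4.25% and 7.13%, and 7.39% and 5.62% in the same order. The list medians were 0.21, -0.03 and 0.35 on the log2 scale, beside 0.01, -0.02 and 0.02. Eif2ak3, which encodes PERK, fell by 0.81 ± 0.21 in Xbp1-Ire1 KO against WT (log2, edgeR adjusted p = 0.0262) and fell by 1.60 ± 0.22 in Xbp1 KO against WT (0.000209). Ppp1r15b, the constitutive counterpart of Ppp1r15a, was higher by 0.54 ± 0.13 in Xbp1-Ire1 KO against WT (edgeR adjusted p = 0.0199) and fell by 0.80 ± 0.13 in Xbp1 KO against WT (0.00131). The eIF2 beta subunit gene Eif2s2 was higher by 1.79 ± 0.17 and 0.90 ± 0.16 in the same comparisons (edgeR adjusted p = 1.08e-05 and 0.00284).

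Lists around the other roles of the 10 genes were counted against the same shares of all genes (3.19% higher and 5.04% lower in cDC1 Xbp1-Ire1 KO against WT, 4.25% and 7.13% in Xbp1 KO against WT). Of 17 further C/EBP and ATF family genes, 4 were higher and 0 lower in cDC1 Xbp1-Ire1 KO against WT, and 3 higher and 1 lower in Xbp1 KO against WT, with Jdp2, a repressor of AP-1 sites, at 1.66 ± 0.19 and 1.42 ± 0.19 (edgeR adjusted p = 6.36e-05 and 0.000161). The median of these 17 was 0.34 and 0.25 in the 2 comparisons, beside 0.01 and -0.02 over all genes. Of 13 further mTORC1 repressors and sensors near Sesn2 and Ddit4, 0 were called in either comparison with WT and 1, Sesn3, was lower in Xbp1-Ire1 KO against Xbp1 KO (-0.93 ± 0.28, edgeR adjusted p = 0.0399). Of 12 p53 targets, the class to which Sesn2 also belongs, 4 were higher in Xbp1-Ire1 KO against WT, among them Phlda3 (1.86 ± 0.31, edgeR adjusted p = 0.00183), and 1 in Xbp1 KO against WT, with list medians of 0.56 and 0.38. Of 7 hypoxia genes 1 was higher in each comparison with WT. Of 7 glucocorticoid-responsive genes, a class that includes Ddit4, 0 were higher and 1 lower in Xbp1-Ire1 KO against WT, and 2 were higher and 0 lower in Xbp1 KO against WT. Of 6 genes tested as targets of CHOP in particular, which include Trib3 and Ppp1r15a, 2 were higher and 1 lower in Xbp1-Ire1 KO against WT and 1 was higher in Xbp1 KO against WT.

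Genes with the most similar pattern were ranked over 12185 genes by the root mean square difference of centred mean log2 CPM over the 6 groups. Closest to Atf4 were the ER chaperone gene Hspa5 (0.22) and Yars (0.28), a tyrosyl-tRNA synthetase gene, beside a range of 3.16 for Atf4 itself. Closest to Trib3 were the amino acid transporter gene Slc1a4 (0.38) and Phgdh (0.74), with a Trib3 range of 7.29. Nearest to Ddit3 was Thrb (0.33), ahead of the cationic amino acid transporter gene Slc7a3 (0.42), which was nearest to Atf5 (0.16). Gpt2, an alanine aminotransferase gene, was nearest to Chac1 (0.51), followed by Mllt3 (0.58). For Cebpg, Sesn2 and Ddit4 the nearest were Smim10l1 (0.03), Cnbd2 (0.07) and Atrnl1 (0.19), beside ranges of 0.75, 1.62 and 4.86. Nearest to Ppp1r15a were Col14a1 (0.12), Traf4 (0.13) and the immediate early gene Nr4a1 (0.14), and Gbp8 was nearest to Cebpb (0.23).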

How the data were processed

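Bulk RNA was measured in 19 libraries of sorted spleen cDC1 and cDC2 from 3 genotypes. The authors deposited 1 table of raw counts per gene and cell type (24421 symbols each) and 1 table of log2 values. Per the submitters' processing notes, FastQC 0.11.4, Trimmomatic 0.35, TopHat2 2.1.0, SAMtools 0.1.19 and limma 3.42.2 were used with the mm10 build. The counting program, its annotation and its strand setting were not given in the sources used here. The deposited log2 values (11059 and 11441 genes) equal log2 CPM, taken after adding 0.5 to each count, plus an offset per library, by comparison with the counts. They were not tested.

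Counts were tested with edgeR 4.0.16 in R 4.3.3 (TMM, filterByExpr with a minimum count of 10, quasi-likelihood F test, Benjamini-Hochberg adjustment over all genes that passed, called below 0.05). Genotypes were compared within a cell type in 1 fit of its 3 genotypes, and interactions and WT cDC1 against cDC2 in 1 fit of 19 libraries. Standard errors were derived from each fold change and its F statistic, so they and the 95% intervals are approximate. Printed CPM were scaled over 19 libraries, whereas fold changes come from each fit. Lengths and coordinates are those of GENCODE M21 (GRCm38), whose build the mm10 files share. The fits were also run on simulated counts, drawn without any difference between the kinds of WT library, so that run says nothing about that difference. Alternatives were DESeq2 1.42.0 size factors and test, no filter, WT libraries of 1 name only, each library left out, and replicate number as a block. Counts of ATF4 and CHOP targets under the alternatives were added after seeing the data. Libraries with the same replicate number in their titles had correlated deviations of -0.16 to 0.27 over 18 pairs within a cell type. Between cell types these were -0.06 to 0.34 over 9 pairs. Pairs of unlike number gave -0.25 to 0.17 over 42 pairs within and -0.41 to 0.34 over 21 pairs between cell types. Within a cell type, 5 of the 18 and 5 of the 42 pairs were over 0.1. Same-number pairs of the KO genotypes gave -0.02, 0.24 and 0.11 in cDC1 and 0.04, 0.27 and 0.21 in cDC2. The main fits did not treat genotypes or interactions as paired, and a replicate effect shared between KO groups is not excluded. The 3 WT pairs of the same number between cell types were all over 0.1 (0.18, 0.34 and 0.28). WT libraries of unlike number but the same kind of name gave 0.34 (cDC1 replicate 3 with cDC2 replicate 4). Likewise cDC1 replicate 1 with cDC2 replicate 2 gave 0.23, and cDC1 replicate 2 with cDC2 replicate 1 gave 0.06. Pairing by title number thus cannot be told apart from the kind of name. As an alternative, a block by title number changed no call among the 10 genes in WT cDC1 against cDC2 (4761 genes in all, 4943 without). In every comparison the 10 genes are named, and of each gene list up to 4 called genes with the smallest adjusted p. The genes and lists were chosen with earlier results of these data known. Intervals cover counting error and the spread between libraries only. Plots used matplotlib 3.10.9 (Python 3.11.15).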

Additional observations from a re-analysis of the deposited data

Results flagged for a closer look

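In WT cDC2, Trib3 in replicate 1 (2.035 CPM) stood apart from the other 3 libraries, which had 0.577 to 0.812 CPM. This was the only one of the 10 genes with an outlying library among the 10 groups of 4 tested, and chance flags about 1 in 20 groups.

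The genotype effect differed between cDC1 and cDC2 by a direct test for 5 genes in Xbp1-Ire1 KO against WT. The difference in log2 fold change, cDC1 minus cDC2, was 3.84 for Ddit3, 2.34 for Cebpb, 0.83 for Cebpg, 6.7 for Trib3 and 1.61 for Sesn2 (edgeR interaction, adjusted p = 4.56e-05, 0.024, 0.0442, 0.000241 and 4.95e-05). In Xbp1-Ire1 KO against Xbp1 KO it was 2.34 for Ddit3, 4.08 for Trib3 and 1.36 for Sesn2 (adjusted p = 0.00394, 0.0407 and 0.000193). The Trib3 differences rest on few cDC2 counts: with 1 library left out they ranged from 6.16 to 11.76 against WT and from 3.58 to 9.14 against Xbp1 KO, the highest both times without cDC2 Xbp1-Ire1 KO replicate 1, which held all Trib3 counts of its group, and the second call was lost in 9 of 12 such fits. In cDC1 all 3 Xbp1-Ire1 KO libraries were above all 3 libraries of WT for each of the 5 genes, while the cDC2 genotypes overlapped. These 5 genes were picked by the interaction test on the same libraries, so this separation is no further support for it. The share of all genes with such a separation was not counted.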

How the results depend on the processing

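Of 1338 fold changes of the 10 genes recomputed under the alternatives, 1207 kept their direction and side of the threshold, 45 lost a call, 34 gained one, 51 uncalled values changed sign and 1 called value reversed: Ppp1r15a in cDC1 Xbp1-Ire1 KO against WT, -0.90 with only the WT-named library and 0.08 with all. The causes of the movements were not tested. Against fl-fl libraries only, all genes called were 2959 in cDC1 Xbp1 KO against WT (1292 with all), 2018 in cDC1 Xbp1-Ire1 KO against WT (934), 787 in cDC2 Xbp1 KO against WT (10) and 511 in cDC2 Xbp1-Ire1 KO against WT (2), and of the 10 genes 4 and 3 were called in the cDC2 comparisons (0 and 0). Against WT-named libraries only, the counts were 402 for cDC1 Xbp1 KO against WT, 6 for cDC2 Xbp1 KO against WT and 3183 for WT cDC1 against cDC2 (4943). DESeq2 called 48, 5 and 11 genes in cDC2 Xbp1 KO against WT, Xbp1-Ire1 KO against WT (2) and Xbp1-Ire1 KO against Xbp1 KO (4), and 431, 463 and 462 in the interactions for Xbp1 KO against WT (265), Xbp1-Ire1 KO against WT (299) and Xbp1-Ire1 KO against Xbp1 KO (279), with 1 of the 10 genes in the first. Without a filter, cDC2 Xbp1-Ire1 KO against Xbp1 KO gave 7. Leaving out 1 library gave 540 to 2959 genes for cDC1 Xbp1 KO against WT, 448 to 2018 for cDC1 Xbp1-Ire1 KO against WT, 670 to 1341 for cDC1 Xbp1-Ire1 KO against Xbp1 KO (1477), 5 to 15 for cDC2 Xbp1 KO against WT and 2 to 10 for cDC2 Xbp1-Ire1 KO against Xbp1 KO. For the interactions it gave 189 to 445 genes and 0 to 1 of the 10 for Xbp1 KO against WT, and 172 to 306 genes and 3 to 6 of the 10 for Xbp1-Ire1 KO against WT. With the replicate number as a block, 5 of the 10 genes were called in cDC1 Xbp1-Ire1 KO against Xbp1 KO (4 without, Atf4 added), 4 in the interaction for Xbp1-Ire1 KO against WT (Cebpb lost) and 2 in that for Xbp1-Ire1 KO against Xbp1 KO (Trib3 lost). With the number in the sample descriptions as the block, 5 were called in the interaction for Xbp1-Ire1 KO against WT (Cebpg lost, Atf4 added), 4 in that for Xbp1-Ire1 KO against Xbp1 KO (Trib3 lost, Cebpb and Chac1 added, 414 genes in all) and 6 in WT cDC1 against cDC2 (Trib3 lost, Atf4 added, 3933 genes in all). This block joined only libraries of the same genotype, so it paired no genotypes. Description numbers were checked between cell types only, where 6 pairs of the same number had correlated deviations of -0.24 to 0.34. Whether they pair genotypes was not checked. No alternative moved the median of all genes by over 0.1. Low counts limit Trib3 and Atf5 in cDC2 and Ddit4 in cDC1.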
